A study of Mus musculus with 6 samples.

Results

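The 4 MEF2 transcription factor genes (*Mef2a*, *Mef2b*, *Mef2c* and *Mef2d*) and the 4 class IIa histone deacetylase genes (*Hdac4*, *Hdac5*, *Hdac7* and *Hdac9*) were read in follicular helper T (Tfh) cells with and without Bob1, the transcriptional coactivator encoded by *Pou2af1*. These 8 genes, of 26212 with a name in the deposited comparison, were chosen by name around the fall of *Mef2b* in these same libraries. Their differences between groups are thus given as a description, with no P value printed for any member. Counts of members past a threshold are given only beside those of all genes, and nothing is read from them. In each of the 6 libraries exactly 1 row of FPKM was assigned to each of the 8. FPKM is a level that is scaled to the length of the transcript and to the mapped fragments of the library. Further rows that lay inside some of the 8 genes were not assigned and are not in these values.

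Tfh cells were sorted from mouse spleens by CXCR5 and PD-1 among CD3+CD4+ cells without B220 or GFP, on day 7 after intraperitoneal immunization with 100 µg of NP-CGG, a haptenated protein antigen, in complete Freund's adjuvant. The 3 libraries labelled Bob1KO came from FoxP3GFP/DTR CD4Cre/+Bob1fl/fl mice, and the 3 labelled WT from FoxP3GFP/DTR CD4+/+Bob1fl/fl mice, which carry the floxed *Pou2af1* alleles and the FoxP3 reporter without Cre. Cre came from a transgene under *Cd4* control, so that all T cells that have passed through a CD4+ stage carry the deletion and not Tfh cells alone, and the reporter let GFP+ FoxP3+ cells be gated out. The libraries of each group came from separate experiments with several mice each, and 0.7 ng of RNA per library was amplified as full-length cDNA. The methods describe the mice as young adult, sex-matched littermates on a C57BL/6 background.

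MEF2 factors bind DNA through a MADS box, a domain at the very start of the protein, and either activate or silence their targets depending on the partner they carry. Class IIa histone deacetylases are such partners. They sit on MEF2 in the nucleus and repress its targets, and once they are phosphorylated by kinases that respond to calcium and to the T cell receptor, 14-3-3 proteins carry them into the cytoplasm and MEF2 is freed. *Mef2b* is best known in germinal center B cells, where its product works beside Bob1 and Oct-2 at regulatory DNA of *Bcl6*, the gene of the lineage factor that Tfh and germinal center B cells share.

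The start of the coding sequence shows how close the MEF2 genes are and where they differ. Whether reads were told apart between them was not tested. The first 60 coding bases, which begin the MADS box, are given here from the GENCODE transcripts of GRCm38, with the bases that are equal in all 4 genes in capitals.
Mef2a: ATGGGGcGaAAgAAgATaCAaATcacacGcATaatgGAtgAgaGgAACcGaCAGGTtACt
Mef2b: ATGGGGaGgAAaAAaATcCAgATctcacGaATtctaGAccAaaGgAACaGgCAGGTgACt
Mef2c: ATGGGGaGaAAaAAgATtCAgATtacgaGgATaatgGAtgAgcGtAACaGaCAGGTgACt
Mef2d: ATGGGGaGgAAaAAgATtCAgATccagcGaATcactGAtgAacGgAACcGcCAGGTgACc
Of these 60 bases, 35 are equal in all 4, and *Mef2b* is equal to *Mef2a* and *Mef2c* at 43 and to *Mef2d* at 45. Over whole annotated transcripts, the longest run of bases that *Mef2b* shares with another of the 8 genes is 31, with *Mef2c*. Within the deacetylases the longest shared run is 36 bases, between *Hdac5* and *Hdac7*.

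*Mef2b* lies on chromosome 8 of GRCm38 from 70152778 to 70167488, on the plus strand, and its longest coding transcript has 9 exons. The sequence before its start is shown because it is one of 2 member promoters that hold the octamer ATGCAAAT, the motif that Oct-1 and Oct-2 read and through which Bob1 is brought to DNA. The RefSeq promoter table for GRCm38.p6 gives it as chr8:70152511-70152760, here 5′ to 3′ on the plus strand and with the octamer in capitals.
Mef2b: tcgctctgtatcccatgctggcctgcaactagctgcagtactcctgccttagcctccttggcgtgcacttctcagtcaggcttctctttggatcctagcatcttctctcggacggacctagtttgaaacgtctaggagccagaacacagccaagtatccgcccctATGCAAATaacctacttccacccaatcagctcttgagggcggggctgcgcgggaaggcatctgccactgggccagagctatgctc
The octamer stands 85 to 78 bases before the start that RefSeq gives. The other member with one is *Hdac9*, where it lies 49 to 42 bases before the start of 1 of its transcripts, at chr12:34528931-34528938 on a gene of the minus strand, within gttgattcatATGCAAATggattatcac. Searched on both strands, ATGCAAAT was found in 570 of the 32851 promoter windows of 300 bases in the table, or 1.74%. All 8 genes were matched in it, with 14 windows. The MEF2 consensus, searched in the same way, was found in 3.19% of all windows and in 2 of the 14. These were *Hdac5*, at chr11:102230183-102230192, 20 to 11 bases before its start, within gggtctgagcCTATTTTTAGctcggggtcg, and *Mef2a*, at chr7:67372851-67372860, across its start, within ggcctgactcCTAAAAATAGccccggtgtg. The capitals mark the match, which is a description of the letters in the window and not a measured binding site.

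The targeted gene was read first. *Pou2af1* had 46.1, 32.5 and 34.4 FPKM in CD4+/+Bob1fl/fl replicates 1, 2 and 3 and 1.16, 0.237 and 0.317 in CD4Cre/+Bob1fl/fl replicates 1, 2 and 3 (log2 fold change -4.65, standard error 0.256, adjusted P = 0.00318 from limma). All 3 libraries labelled Bob1KO lay far below all 3 labelled WT. The 13 Tfh markers, among them *Cxcr5*, *Pdcd1*, *Icos*, *Bcl6* and *Il21*, were above 0 in all 6 libraries, with a summed FPKM of 2727 to 3725 in CD4+/+Bob1fl/fl and 2813 to 3632 in CD4Cre/+Bob1fl/fl libraries. Depth relative to CD4+/+Bob1fl/fl replicate 1, read from the steps between low values, ranged from 0.91 to 1.325, and the files hold no counts. It is a rough guide, resting on a most common ratio shared by 13 to 33 genes of the 804 to 931 compared. Both replicate 2 libraries held Y-linked transcripts (87.4 and 97.0 FPKM over 4 genes), and the other 4 held at most 0.0256.

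Of the 4 MEF2 genes, *Mef2b* was low in every CD4Cre/+Bob1fl/fl library and the other 3 overlapped between the groups. *Mef2b* had 30.6, 9.28 and 10.6 FPKM in CD4+/+Bob1fl/fl replicates 1, 2 and 3 and 1.22, 1.18 and 0.404 in CD4Cre/+Bob1fl/fl replicates 1, 2 and 3. A further row inside the gene, at 0.693 FPKM in CD4Cre/+Bob1fl/fl replicate 1, was not assigned and is left out of these values. The highest CD4Cre/+Bob1fl/fl library was at 13.1% of the lowest CD4+/+Bob1fl/fl library, so the groups were far apart, and CD4+/+Bob1fl/fl replicate 1 stood well above the others of its group. The means were 16.8 ± 12.0 (SD, n = 3) and 0.936 ± 0.461 (SD, n = 3), a ratio of 0.0556, and the log2 fold change on log2(FPKM + 1), a scale that understates changes of low values, was -3.04 with a standard error of 0.441. Of the 10107 genes tested, which are those whose mean FPKM reached 1, 0.0297% had a log2 fold change at or below this value. These were *Mef2b* itself, *Pou2af1* and *Snora31*, a small nucleolar RNA listed at 0 in 2 libraries. The number of genes at or below the value of *Mef2b*, itself included, was 3 here, 14 without CD4+/+Bob1fl/fl replicate 1 and 19 without both replicate 1 libraries. It was 7 with a pseudocount of 0.1 and also without both replicate 2 libraries. In bulk RNA of sorted cells, fewer *Mef2b*-expressing cells and less *Mef2b* RNA per cell cannot be told apart.

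The precision of single libraries did not blur this order. The interval that Cufflinks gives for *Mef2b* ran from 27.9 to 33.4 FPKM in CD4+/+Bob1fl/fl replicate 1 and from 7.90 to 10.7 in replicate 2, the lowest of that group. In CD4Cre/+Bob1fl/fl replicate 1, the highest of the other group, it ran from 0.708 to 1.73, and in replicate 3 from 0.0677 to 0.741, so *Mef2b* transcripts remained above 0 in all 3. These intervals cover the estimate within 1 library, not the spread between experiments. Between libraries of the same number the level was 25.1, 7.84 and 26.2 times higher in CD4+/+Bob1fl/fl than in CD4Cre/+Bob1fl/fl cells.

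**Figure D1:**
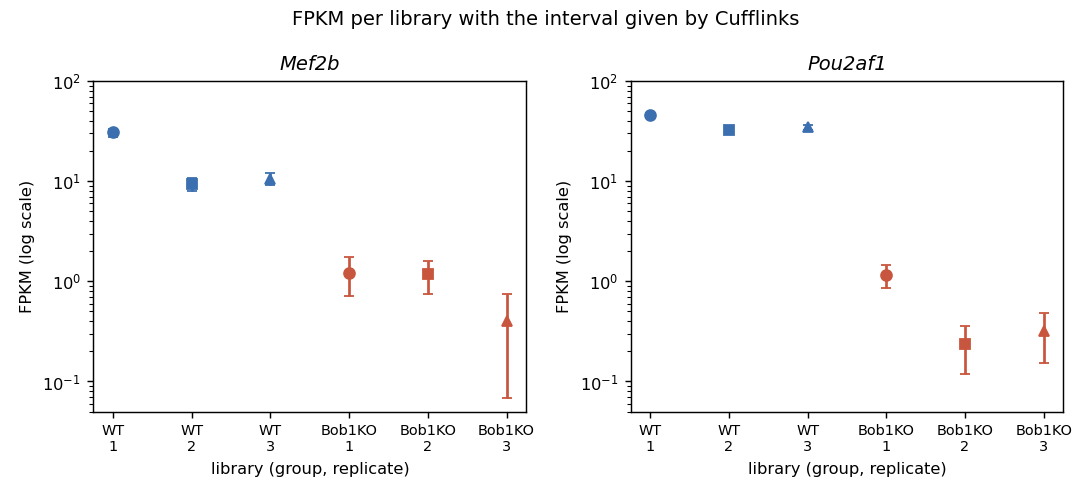
FPKM of *Mef2b* and of the targeted gene *Pou2af1* in each of the 6 Tfh libraries, on a log axis, with the interval given by Cufflinks as bars and the replicate number as the shape of the point (WT in blue, Bob1KO in red). For *Mef2b* the lowest WT library is at 9.28 and the highest Bob1KO library at 1.22, and for *Pou2af1* they are at 32.5 and 1.16.

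Library CD4+/+Bob1fl/fl replicate 1 was also the highest of all 6 for 9 of the 13 Tfh markers. *Pdcd1*, which encodes PD-1, was at 607 FPKM there and at 288 and 275 in the other CD4+/+Bob1fl/fl libraries, while the CD4Cre/+Bob1fl/fl library of the same number, at 554, was the next highest. Set against *Bcl6* in the same library, *Mef2b* was at 41.4, 22.3 and 28.0 FPKM per 100 FPKM of *Bcl6* in the CD4+/+Bob1fl/fl libraries and at 1.92, 2.48 and 1.06 in the CD4Cre/+Bob1fl/fl libraries. Set against *Pdcd1* it was at 5.04, 3.23 and 3.85 and at 0.220, 0.358 and 0.105 per 100. On both measures the groups stayed apart, but neither could have closed the gap. Over the 6 libraries *Bcl6* varied 1.95-fold and *Pdcd1* 2.21-fold from lowest to highest. The highest *Mef2b* value in CD4Cre/+Bob1fl/fl cells was 13.1% of the lowest in CD4+/+Bob1fl/fl cells. Without both replicate 1 libraries, a choice made after seeing the data, the log2 fold change of *Mef2b* was -2.64, and without both replicate 2 libraries it was -3.44.

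B cells express *Mef2b*, so their markers were read beside it. *Cd79a*, *Cd79b*, *Ms4a1* and *Pax5*, which mark B cells, summed to 5.65, 5.003 and 4.92 FPKM in the CD4+/+Bob1fl/fl libraries and to 7.14, 2.15 and 4.62 in the CD4Cre/+Bob1fl/fl libraries. The groups overlapped, and the highest sum was in a CD4Cre/+Bob1fl/fl library where *Mef2b* was at 1.22. Over the 16 B cell and germinal center B cell markers with a value, of 20 listed, 9 were below 1 FPKM in all 6 libraries, and the sum ranged from 97.9 to 167 in CD4+/+Bob1fl/fl and from 84.1 to 140.3 in CD4Cre/+Bob1fl/fl libraries. Most of it came from *Fas*, *Cd22* and *S1pr2*. *S1pr2*, the receptor that holds germinal center cells in place and that Tfh cells also carry, was at 63.6, 23.1 and 26.3 FPKM in CD4+/+Bob1fl/fl and at 17.9, 13.6 and 15.5 in CD4Cre/+Bob1fl/fl libraries, like *Mef2b* without overlap (log2 fold change -1.07, standard error 0.358, adjusted P = 0.910 from limma).

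The summed markers of each other cell type that could pass the gate overlapped between the groups. Myeloid markers, 11 of 13 with a value and all above 0 in every library, summed to between 484 and 832 FPKM in CD4+/+Bob1fl/fl and between 84.0 and 4091 in CD4Cre/+Bob1fl/fl libraries, with *S100a8* and *S100a9* the most abundant and CD4Cre/+Bob1fl/fl replicates 2 and 1 at the 2 ends. Plasma cell markers, 2 of 4, summed to at most 1.28, and dendritic cell markers, 6 of 6, to at most 2.18, with *Clec9a* at 0 in all libraries. Those of NK and CD8+ T cells, 8 of 8, summed to 106 to 161 and 99.3 to 147, mostly *Nkg7*, with *Klrb1c* at 7.89 to 12.2, *Cd8b1* at 3.44 or more and *Cd8a* at most at 0.139. Of these 8, 1 was lower without overlap, the cytotoxic granule gene *Prf1*, at 2.78, 2.56 and 3.06 FPKM in CD4+/+Bob1fl/fl and 0.907, 1.84 and 1.16 in CD4Cre/+Bob1fl/fl libraries (log2 fold change -0.74, standard error 0.219, adjusted P = 0.822 from limma). Of all tested genes, 4.85% were lower and 5.88% higher without overlap, so nothing is read from this 1 gene. Those of regulatory T cells, 2 of 3, were mostly *Ikzf2* and summed to 49.5 to 97.5 and 65.3 to 74.7, and those of erythroid cells and platelets, 6 of 7 and mostly *Hba-a1*, to 3.12 to 9.05 and 4.09 to 10.7. One of these, *Alas2*, was higher without overlap, at most at 0.735 FPKM. With myeloid sums of 4091, 84.0 and 1150 in CD4Cre/+Bob1fl/fl replicates 1, 2 and 3, *Mef2b* was at 1.22, 1.18 and 0.404 FPKM. The part of other cells in the level of the members was not tested.

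*Mef2d*, a MEF2 factor of thymocytes and many other cells, was the most abundant of the family. It had 29.9, 27.2 and 27.7 FPKM in CD4+/+Bob1fl/fl and 29.7, 30.3 and 24.3 in CD4Cre/+Bob1fl/fl libraries. The groups overlapped, the log2 fold change was -0.01 with a standard error of 0.125, and *Mef2d* varied least of the 8 genes, with a coefficient of variation of 8.12% over the 6 libraries. *Mef2a*, a broadly expressed member, had 4.89, 5.01 and 2.96 FPKM and 4.71, 5.47 and 5.42. CD4+/+Bob1fl/fl replicate 3 was the lowest and the other 5 lay close together (log2 fold change 0.25, standard error 0.207). *Mef2c*, which B cells, muscle and neurons express strongly, was nearly silent, at 0.0964, 0.0499 and 0 FPKM in CD4+/+Bob1fl/fl and 0.294, 0.0960 and 0.0478 in CD4Cre/+Bob1fl/fl libraries. The groups overlapped, and the CD4Cre/+Bob1fl/fl library was the higher one of each same-numbered pair. No library reached 1 FPKM in the row used, and *Mef2c* was not among the genes tested. An unassigned row inside *Mef2c* was at 1.49 FPKM in CD4Cre/+Bob1fl/fl replicate 1 and at 0 in the other libraries.

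**Figure D2:**
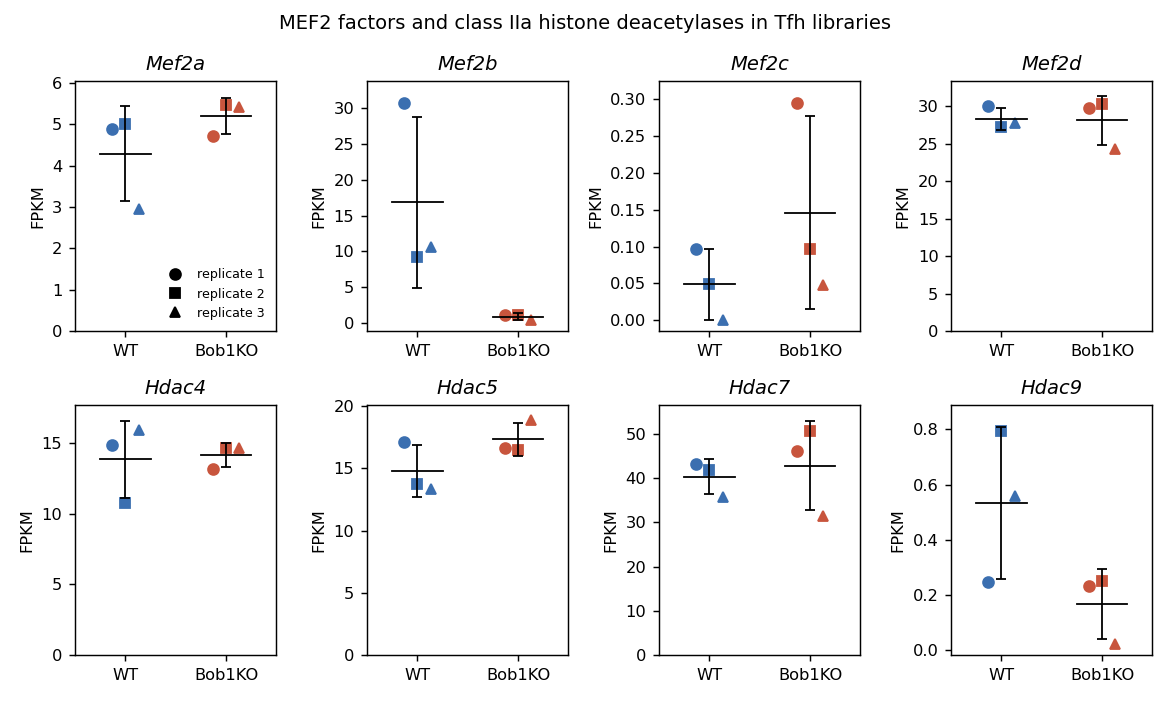
FPKM of the 8 genes in each Tfh library, on linear axes, with WT in blue and Bob1KO in red, the replicate number as the shape of the point, a horizontal line at the mean of 3 libraries and bars for the SD. The groups are apart for *Mef2b*, with means of 16.8 and 0.936, and overlap for the other 7 genes.

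The class IIa histone deacetylases overlapped between the groups in all 4 cases. *Hdac7*, the class IIa enzyme best known in thymocytes, had 43.3, 41.9 and 35.8 FPKM in CD4+/+Bob1fl/fl and 46.1, 50.8 and 31.5 in CD4Cre/+Bob1fl/fl libraries. Its lowest and highest values both fell in CD4Cre/+Bob1fl/fl cells (log2 fold change 0.06, standard error 0.190). *Hdac5*, a deacetylase exported from the nucleus on phosphorylation, had 17.1, 13.8 and 13.3 FPKM and 16.6, 16.5 and 18.8. CD4+/+Bob1fl/fl replicate 1 lay among the CD4Cre/+Bob1fl/fl values and the other 2 below them (log2 fold change 0.22, standard error 0.140).

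*Hdac4*, which shares this control, had 14.9, 10.7 and 15.9 FPKM in CD4+/+Bob1fl/fl and 13.2, 14.7 and 14.7 in CD4Cre/+Bob1fl/fl libraries. The CD4Cre/+Bob1fl/fl values fell within the range of the other group (log2 fold change 0.05, standard error 0.167). In CD4+/+Bob1fl/fl replicates 2 and 3 the row used for *Hdac4* stopped 2864 and 3955 bases short of the end of the gene. Unassigned rows in that stretch were at 3.62 and 4.77 FPKM. *Hdac9* was at 0.246, 0.793 and 0.560 FPKM and at 0.232, 0.251 and 0.0225. It was under 1 FPKM in all libraries, the groups overlapped by 1 library each, and it was not among the genes tested. Between same-numbered libraries the ratio of CD4Cre/+Bob1fl/fl to CD4+/+Bob1fl/fl was 0.943, 0.317 and 0.0402. Its assembled row ran far past the annotated span in CD4+/+Bob1fl/fl replicates 2 and 3 and CD4Cre/+Bob1fl/fl replicate 1, so these values and the other 3 do not describe the same stretch. Its transcript in the deposited comparison is also a short form, with 1764 coding bases against 2859 to 3345 for the other 3 deacetylases.

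Of the 6 members tested, 0 passed an adjusted P of 0.05 in limma, where 2 of 10107 genes, or 0.0198%, passed. These were *Pou2af1*, the 0.00989% called lower, and *Pcsk1*, the 0.00989% called higher. With a block for the replicate number 1 gene, *Pou2af1*, passed. At an unadjusted P below 0.05, 1 of the 6 members was counted, *Mef2b*, against 5.35% of all genes and 2.17% for lower genes alone. Without overlap between the groups, 1 of the 6 was lower and 0 were higher, where 4.85% and 5.88% of all genes were. Since the fall of *Mef2b* in this contrast chose the members, nothing is read from these counts.

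The deposited comparison, made on 1 assembly common to all libraries, lists 1 value of FPKM per group and no error. For *Mef2b* it lists 19.1 for WT and 1.04 for Bob1KO, and for *Mef2d* 31.0 and 31.8. *Mef2a* stands at 5.25 and 6.30 and *Mef2c* at 0.0586 and 0.183. The deacetylases stand at 50.1 and 55.6 for *Hdac7*, 16.7 and 20.0 for *Hdac5*, 15.4 and 16.3 for *Hdac4* and 0.488 and 0.210 for *Hdac9*. The order of the genes within each family in WT was the same as that of the means over libraries computed by position.

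Since FPKM is a level per length, members can be ordered within a library, and 6 pairs of neighbours in the order of the mean were compared by an exact sign-flip permutation test over the 6 libraries, two-sided, with the log2 ratio as the measure. With 6 libraries this exact test cannot go below P = 0.03125, and adjusted over 6 pairs none can be below 0.05 unless 4 or more stand at that limit. It also treats the 6 libraries as independent, although same-numbered libraries were taken as pairs, so its P can be too small. *Hdac7* was above *Hdac5* in 6 of 6 libraries by 1.37 on the log2 scale (SD 0.326, exact P = 0.03125, adjusted P = 0.0625). *Hdac5* and *Hdac4* were not separated beyond their spread, with *Hdac5* higher in 5 of 6 libraries by 0.19 (SD 0.235, exact P = 0.125, adjusted P = 0.15). *Hdac4* was above *Hdac9* in 6 of 6 by 5.80, and *Mef2a* above *Mef2c* in 6 of 6 by 6.06, with 0.01 FPKM added to each value before the ratio, which sets its size where *Mef2c* is at 0 (exact P = 0.03125 and adjusted P = 0.0625 for both). The pairs with *Mef2b* were among the 6 compared and adjusted over. Its place depended on the group, so nothing is read from their P and only the levels are given. In CD4+/+Bob1fl/fl cells it lay above *Mef2a* in 3 of 3 libraries, by 1.79 on the log2 scale, and in CD4+/+Bob1fl/fl replicate 1 at 30.6 it was level with *Mef2d* at 29.9. In CD4Cre/+Bob1fl/fl cells it lay below *Mef2a* in 3 of 3, by 2.62.

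The makeup of the MEF2 family is described by the share of each gene in the summed FPKM. *Mef2b* held 46.7%, 22.4% and 25.7% of the summed MEF2 FPKM in the CD4+/+Bob1fl/fl libraries and 3.40%, 3.20% and 1.34% in the CD4Cre/+Bob1fl/fl libraries. *Mef2d* held 45.7%, 65.4% and 67.2% and then 82.7%, 81.8% and 80.5%. The sum of the other 3 MEF2 genes was 32.6 ± 2.15 (SD, n = 3) FPKM in CD4+/+Bob1fl/fl and 33.4 ± 3.23 (SD, n = 3) in CD4Cre/+Bob1fl/fl cells, with overlap. With *Mef2b* the family sums were 65.6, 41.5 and 41.3 and 35.9, 37.0 and 30.2. The 4 deacetylases summed to 69.5 ± 5.37 (SD, n = 3) and 74.5 ± 8.74 (SD, n = 3) FPKM. *Hdac7* held between 48.4% and 62.4% of that sum in the 6 libraries. The share of *Hdac9* was 0.325%, 1.18% and 0.853% in the CD4+/+Bob1fl/fl and 0.305%, 0.305% and 0.0346% in the CD4Cre/+Bob1fl/fl libraries, lower without overlap but by a narrow margin, and those of the other 3 deacetylases overlapped.

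**Figure D3:**
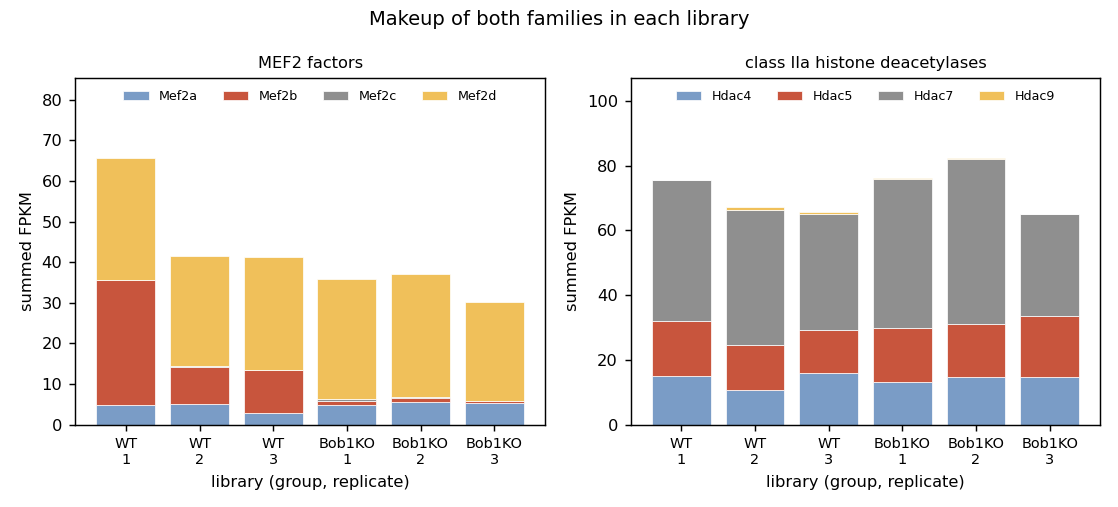
Summed FPKM of the MEF2 factors (left) and the class IIa histone deacetylases (right) in each of the 6 Tfh libraries, as stacked bars from 0 with 1 color per gene. The *Mef2b* segment is 9.28 FPKM or more in the WT bars and 1.22 or less in the Bob1KO bars, while the *Mef2a*, *Mef2d*, *Hdac4*, *Hdac5* and *Hdac7* segments overlap between the groups.

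The tested genes beside *Mef2b* on chromosome 8 had log2 fold changes between -0.36 and 0.14. Within 200000 bases, 13 other genes were tested with limma, of which 0 passed the adjusted threshold of 0.05, and the count at an unadjusted P was also 0. Over all tested genes these shares were 0.0198% and 5.35%. The nearest gene after its end, *Tmem161a*, 4917 bases away, differed by 0.04 on the log2 scale (standard error 0.150), and the nearest before its start, *2310045N01Rik*, 5522 bases away, by -0.11 (standard error 0.129). One of the 13, *Armc6*, 52684 bases away, was lower without overlap, at 7.04, 6.67 and 8.32 FPKM against 6.28, 5.38 and 4.81 (log2 fold change -0.36, standard error 0.160). Of all tested genes 4.85% were lower without overlap. Among the genes too low to be tested, *Gm7730* was lower without overlap, at 0.673, 1.78 and 0.705 against 0.316, 0.252 and 0.377 FPKM, and *Tm6sf2* was higher, at 0.0377, 0.111 and 0.200 against 0.329, 0.479 and 0.408. The remaining log2 fold changes were *Rfxank* 0.11, *Nr2c2ap* -0.19, *Gatad2a* -0.04, *Mau2* -0.13, *Sugp1* 0.06, *Slc25a42* 0.14, *Sugp2* 0.00, *Ddx49* -0.18, *Cope* 0.06 and *Upf1* 0.09. Between *2310045N01Rik* and *Mef2b* each library also held 1 or 2 assembled rows of 0.633 to 1.17 FPKM that ended 244 to 667 bases before *Mef2b*, and these were at like levels in both groups.

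**Figure D4:**
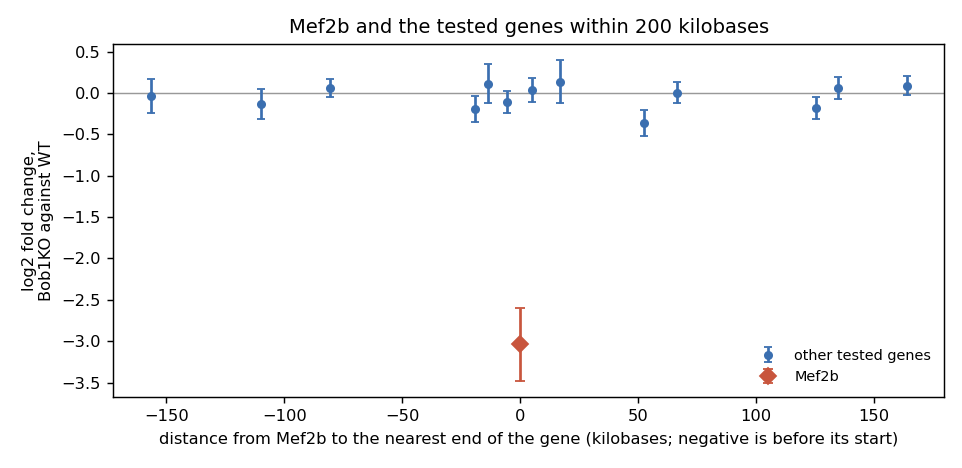
Log2 fold change (Bob1KO against WT, on log2(FPKM + 1)) of *Mef2b* and the 13 other tested genes within 200000 bases, against their distance from *Mef2b* in kilobases, with the standard error as bars. *Mef2b* is at -3.04, and the others lie between -0.36 and 0.14.

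Genes that act with the members were read from lists written by hand with earlier results of these data known. Over all 10107 genes the median log2 fold change was -0.00, and the middle 90% ran from -0.39 to 0.48 (the grey band in the plot of the lists). The counts in each list stand beside these shares of all tested genes. At an unadjusted P below 0.05 in limma, 3.19% were higher and 2.17% lower, and without overlap 5.88% were higher and 4.85% lower. At an adjusted P of 0.05, 0.0198% passed. In the Bob1 complex, the Oct-2 gene *Pou2f2* differed by 0.43 on the log2 scale (standard error 0.398), and *Bcl6*, with 73.9, 41.6 and 37.8 FPKM in CD4+/+Bob1fl/fl and 63.6, 47.8 and 38.1 in CD4Cre/+Bob1fl/fl libraries, by -0.00 (standard error 0.287). *Pou2f1*, the Oct-1 gene, is listed at 0 in all 6 libraries by position, but at 2.99 for WT and 2.96 for Bob1KO in the deposited comparison, so the zeros are not read as a level.

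The class IIa enzymes have little deacetylase activity themselves and work through the NCOR complex and its enzyme HDAC3. Of 12 genes of corepressor partners, 12 were tested, 0 passed an adjusted P of 0.05 in limma, 0 had an unadjusted P below it, 5 were positive and 7 negative, and the median was -0.01. *Hdac3* itself had 53.3 ± 7.17 (SD, n = 3) and 46.4 ± 3.76 (SD, n = 3) FPKM (log2 fold change -0.19, standard error 0.132), and *Tbl1x*, a subunit of the NCOR complex, differed by 0.25 (standard error 0.212). By position the most abundant were *Ctbp1* at a mean of 151 FPKM over all libraries and *Gps2* at 87.1, with *Ncor1* at 79.3. In the deposited comparison *Ncor1* was above *Gps2*, at 164 for WT and 181 for Bob1KO against 105 and 99.1. Of 14 other histone deacetylases and sirtuins, 12 were tested, 0 passed and 0 had an unadjusted P below 0.05, with 3 positive, 9 negative and a median of -0.05. *Hdac8* was lower without overlap, at 9.49 ± 0.405 (SD, n = 3) and 7.83 ± 0.660 (SD, n = 3) FPKM (log2 fold change -0.25, standard error 0.131, adjusted P = 0.946), and the mitochondrial sirtuin gene *Sirt4* differed by -0.31 on that scale (standard error 0.178). *Sirt7* at 232 and *Hdac1* at 137 FPKM were the most abundant.

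Kinases that phosphorylate class IIa enzymes had the highest median of the lists, 0.14, but not in every setting. With a mean FPKM of at least 5 it was 0.0862, below the 0.102 of the MEF2 cofactors and MEF2-activating kinases. Of 17 genes, 13 were tested, 0 passed the adjusted threshold of 0.05 in limma, and 3 higher and 1 lower had an unadjusted P below 0.05, where 3.19% and 2.17% of all genes did. *Sik3*, a salt-inducible kinase, was at 21.9 ± 2.74 (SD, n = 3) and 28.2 ± 2.72 (SD, n = 3) FPKM (log2 fold change 0.36, standard error 0.138, adjusted P = 0.912). *Camk2b*, a subunit of calcium/calmodulin-dependent kinase II, was at 6.40 ± 2.13 (SD, n = 3) and 9.67 ± 1.08 (SD, n = 3) (log2 fold change 0.56, standard error 0.218, adjusted P = 0.912). Both were without overlap between the groups. The other 2, named after their values were seen, were *Sik2* and *Mark3*. *Sik2* is listed at 0 by position in 4 libraries and at 4.24 and 4.47 FPKM in the other 2. The deposited comparison lists it at 3.78 for WT and 4.34 for Bob1KO. Its part in the median and in the count of 3 higher thus rests on rows by position alone. *Mark3* differed by -0.36 on the log2 scale (standard error 0.147). *Prkd2*, the main protein kinase D of T cells, at 84.9 FPKM, and *Camk2d*, at 73.5, were the most abundant and had log2 fold changes of -0.04 and -0.00. Without CD4Cre/+Bob1fl/fl replicate 3 the median of the list was -0.00402.

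Export from and return to the nucleus rest on 14-3-3 proteins, the exportin gene *Xpo1* and phosphatases. Of 15 genes, 15 were tested, 0 passed an adjusted P of 0.05 in limma, 1 higher and 1 lower had an unadjusted P below it, and the median was -0.02. These 2 were subunits of calcineurin, the calcium-dependent phosphatase. *Ppp3cc* had 53.4, 50.8 and 49.4 FPKM in CD4+/+Bob1fl/fl and 38.2, 40.7 and 41.1 in CD4Cre/+Bob1fl/fl libraries (log2 fold change -0.35, standard error 0.0983, adjusted P = 0.784). *Ppp3ca* had 4.30, 5.08 and 3.76 and then 7.83, 5.79 and 6.80 (log2 fold change 0.54, standard error 0.175, adjusted P = 0.881). The groups of both were apart, in opposite directions, and neither passed. By position the most abundant were the 14-3-3 gene *Ywhah* at 321 FPKM and the phosphatase subunit *Ppp2ca* at 201. In the deposited comparison *Ywhah* was lower, at 143 for WT and 133 for Bob1KO, and *Ywhaq*, another 14-3-3 gene, was at 253 and 219.

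Cofactors of MEF2 and kinases that activate it numbered 13, of which 11 were tested. 0 of them passed in limma. In all 9 were positive and 2 negative, the median was 0.10, and 1 was higher at an unadjusted P below 0.05. This was *Crebbp*, which encodes the acetyltransferase CBP, at 5.35 ± 0.512 (SD, n = 3) and 8.15 ± 1.92 (SD, n = 3) FPKM without overlap (log2 fold change 0.51, standard error 0.187, adjusted P = 0.912). The deposited comparison lists it in the opposite order, at 3.54 for WT and 2.46 for Bob1KO, so this direction holds for the rows assigned by position alone. *Nfatc2*, whose product meets MEF2 at cytokine genes, differed by 0.43 on the log2 scale (standard error 0.294). *Nfatc1* at 251 and the p38 kinase activator *Map2k3* at 73.5 FPKM were the most abundant, with log2 fold changes of 0.39 (standard error 0.415) and 0.22 (standard error 0.153).

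Genes known as MEF2 targets in lymphocytes or muscle numbered 13, of which 11 were tested. 0 passed an adjusted P of 0.05 in limma, 1 was lower at an unadjusted P below it, 4 were positive and 7 negative, and the median was -0.04. The lower one was *Irf8*, a transcription factor of B and myeloid cells, with 17.2, 17.9 and 23.1 FPKM and then 17.2, 12.9 and 11.5. The groups did not overlap but nearly met at replicate 1, where the CD4Cre/+Bob1fl/fl library lay just below the CD4+/+Bob1fl/fl one (log2 fold change -0.46, standard error 0.185, adjusted P = 0.915). *Tnf* differed by 0.36 on the log2 scale (standard error 0.229). The most abundant were *Klf2*, a factor of T cell migration, at 296 FPKM and *Jun* at 185, with log2 fold changes of 0.49 (standard error 0.487) and 0.34 (standard error 0.282). *Nr4a1*, the classical MEF2 target of T cells, had 148, 121 and 143 FPKM and then 107, 165 and 82.6, which overlapped. The median of the list was -0.359 without both replicate 2 libraries and -0.426 without CD4Cre/+Bob1fl/fl replicate 2.

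**Figure D5:**
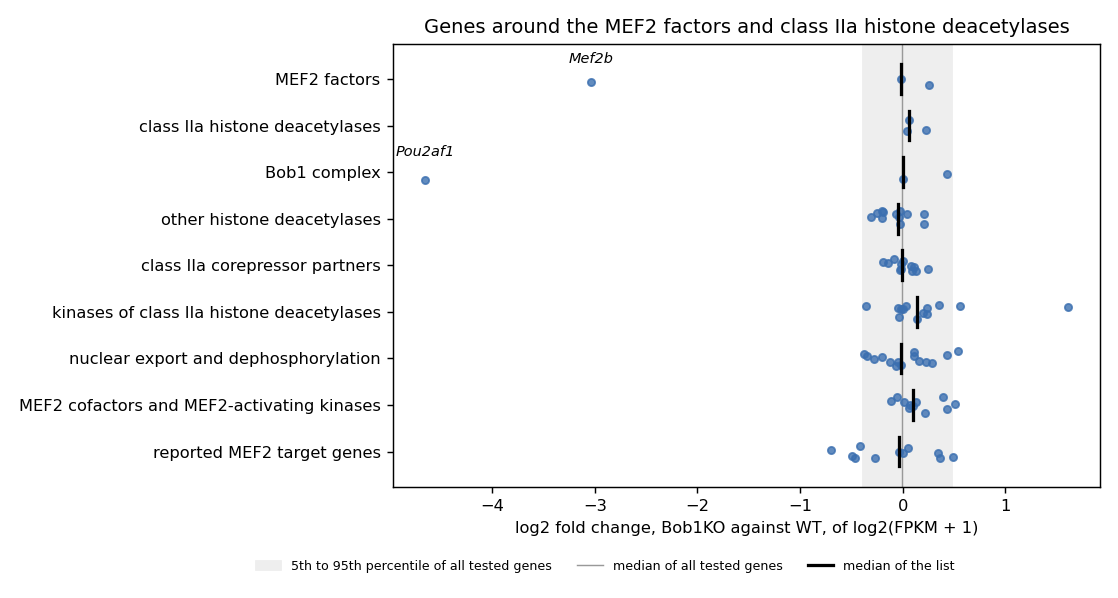
Log2 fold change (Bob1KO against WT, on log2(FPKM + 1)) of the tested genes of 9 lists around the members, 1 point per gene, with a black line at the median of each list and a grey band from the 5th to the 95th percentile of all tested genes (-0.39 to 0.48). *Pou2af1* at -4.65 and *Mef2b* at -3.04 stand far to the left, and the list medians lie between -0.05 and 0.14.

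The tested genes whose levels ran most like *Mef2b* over the 6 libraries, by Pearson's r of log2(FPKM + 1) and as a description only, were *Bid* (r = 0.996), *Stk11ip* (0.985), *Pxmp4* (0.984), *Smtn* (0.979) and *Armcx3* (0.977). All 6 points share the split into 2 groups, and 10107 genes were ranked. Their differences were much smaller. *Bid*, which encodes a BCL2 family protein that promotes cell death, was at 28.1, 24.9 and 25.5 FPKM in CD4+/+Bob1fl/fl and 20.3, 20.9 and 19.3 in CD4Cre/+Bob1fl/fl libraries (log2 fold change -0.36, standard error 0.109, adjusted P = 0.840 from limma). *Smtn*, which encodes the cytoskeletal protein smoothelin, was at 78.6, 57.6 and 50.3 and at 31.1, 36.5 and 26.6 (log2 fold change -0.95, standard error 0.193, adjusted P = 0.388). Both were lower in all 3 CD4Cre/+Bob1fl/fl libraries.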

How the data were processed

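Sequencing covered 6 libraries of sorted splenic Tfh cells (SMART-Seq v4, which does not mark strand), 3 per group as labelled. The authors trimmed reads with cutadapt 1.2.1, mapped them on GRCm38 (mm10) by TopHat2 2.0.13 and obtained the deposited FPKM with Cufflinks 2.2.1, on transcripts assembled in each library alone. Depth in counts is not given. A second deposited table compares both groups on 1 common assembly. Its group FPKM were used, and its log2 fold change, statistic, p-value and q-value columns were not. No source used here gives the version of the annotation.

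Rows carry assembly numbers for 94.07% to 95.92% of the FPKM of a library, so they were assigned to genes by position. A row went to the gene (GENCODE vM21 spans of the table's RefSeq transcripts) with which it shared at least 0.5 of the joint length, or, for genes still without one, of which it covered at least 0.95. This gave 23501 genes. Of the named rows that were assigned, over 99% went to their own name. The assembled rows, which carry most of the FPKM, hold no name and could not be checked in this way. Overlapping genes cannot be told apart.

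Genes were tested where the mean FPKM reached 1, which left 10107. They were fitted with limma 3.58.1 (R 4.3.3) on log2(FPKM + 1) with a variance trend, no covariate, two-sided tests and P values adjusted by Benjamini-Hochberg, after a test on simulated data. P values measure the spread between these libraries. Deviations from the group means correlated at 0.1396, 0.1449 and 0.1321 between same-numbered libraries, so the numbers were taken to pair the libraries. The correlations between all others were negative, which centring on group means produces on average and adds little. The standard errors and P values above are nevertheless from the fit without pairing, unless a block is named. A block was fitted as an alternative, and with it 633 genes had an unadjusted P below 0.05 in limma, against 541 without. Other alternatives were the pseudocount, filter, scaling, trend, matching and libraries left out. The members and lists were chosen with earlier results of these data known, and 1 marker gene is not reported here. Named are the members, *Pou2af1*, *Pou2f2* and *Bcl6*, the 2 genes with the smallest P and the 2 most abundant of each list, the leading and defining markers, the 5 genes most like *Mef2b* and its tested neighbours within 200000 bases. Other genes are named where a count of a few turned on them. Tables and motif searches were made with Python 3.11.15.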

Additional observations from a re-analysis of the deposited data

How the results depend on the processing

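*Mef2b* stayed lower in CD4Cre/+Bob1fl/fl cells under all 18 alternatives run, but not all of these could change it. The filter, trend, matching and block alternatives left it at -3.04 by construction, as 1 row was assigned in each library. The log2 fold change of *Mef2b* was -3.94 with a pseudocount of 0.1 and -1.75 with one of 5, a shift that the pseudocount itself makes in low values, and ranged from -3.34 to -2.53 with 1 library left out. The values of the other 5 tested members moved by less than their spread between replicates in every alternative that gave one. The filter, trend, matching and block alternatives could not move these either. The replicate block left the log2 fold change of *Mef2b* at -3.04 and lowered its standard error to 0.326. It took the count of genes past the adjusted P from 2 to 1 and changed no other call. That count was also 1 with a pseudocount of 0.1 and with a mean FPKM of at least 5, and ranged from 0, without CD4+/+Bob1fl/fl replicate 2, to 7, without CD4+/+Bob1fl/fl replicate 1. It was 4 without CD4+/+Bob1fl/fl replicate 3 and 1 without CD4Cre/+Bob1fl/fl replicate 1 or 3. The cause was not tested.

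Without both replicate 2 libraries the median log2 fold change was -0.14 for the other histone deacetylases, 0.10 for nuclear export and dephosphorylation and -0.359 for the reported MEF2 targets. With quantile normalization it was 0.0230 for nuclear export and dephosphorylation. Leaving out 1 library gave these 3 lists medians from -0.179 to 0.00389, from -0.0330 to 0.0585 and from -0.426 to -0.0332, and that of the kinases from -0.00402 to 0.184. The order of levels could not change by the best-overlapping row alone, which is the same row for every member, and in CD4+/+Bob1fl/fl libraries alone no test could pass. Low members, *Mef2c* and *Hdac9*, are limited by depth, which FPKM do not give, and by rows that differ between libraries.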

Other observations

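The octamer of the *Mef2b* promoter was looked for in the other tested genes, a choice made after it had been seen there. Of 115 tested genes with ATGCAAAT in a promoter window of the RefSeq table, *Mef2b* among them, 14 were lower in all 3 CD4Cre/+Bob1fl/fl libraries than in all 3 CD4+/+Bob1fl/fl libraries, or 12.2%, and 3 were higher, or 2.61%. Of 7036 tested genes in the table without it, 319 were lower, or 4.53%, and 414 higher, or 5.88%. The median log2 fold change was -0.02 with the octamer and -0.00 without. At an adjusted P of 0.05 in limma 0 of the 115 passed, and at an unadjusted P below it 8 were lower, or 6.96%, against 151 of the 7036, or 2.15%. No test of the difference was run.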
